A study of Mus musculus with 4 samples.

Results

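Cell-cell junction genes were compared between mammary tumors of St6gal1-null and wild-type mice, as 37 genes of adherens junctions, tight junctions, desmosomes and gap junctions. The genes were chosen by name, and their probe sets were all those that the platform annotation gives to exactly 1 of these symbols. That rule found 78 probe sets for 36 of the 37 genes, out of 18193 genes that had at least 1 probe set with a single symbol. Dsg3 had no probe set of its own.

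The data were 4 Affymetrix Mouse Genome arrays, each hybridised with the RNA of 1 pool of 3 tumors from different animals. All animals were female C57BL/6 mice with the PyV-mT oncogene, the middle T antigen of polyoma virus, and were 110 days old, with the tumor taken 14 days after onset. The wild-type group and the null group (St6gal1-/-) were littermates and held 2 pools each, and the pools form 2 sets of 1 null and 1 wild-type pool. The promoter of the transgene and the part of St6gal1 that the null allele lacks are not given in the sources used here. Since each pool merges 3 tumors, the spread between animals was not measured, and n is 2 pools per genotype throughout. The p-values and SE of limma cover only the spread between pools, taken mostly from other probe sets of like intensity.

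Adherens junctions join neighbouring cells through cadherins, whose outer parts bind each other and whose tails hold catenins and, through them, actin. Tight junctions seal the gap between epithelial cells with claudins and occludin tied to plaque proteins, desmosomes bind keratin filaments through their own cadherins and plaque proteins, and gap junctions are channels made of connexins. In the mammary gland E-cadherin (Cdh1) marks the epithelium, whereas cadherin 11 (Cdh11) is known from fibroblasts and other mesenchymal cells. Classical type I cadherins (Cdh1, Cdh2, Cdh3) and type II cadherins (Cdh11) bind mostly within their own type. St6gal1 encodes the enzyme that puts alpha2-6-linked sialic acid on N-glycans, which many junction proteins of the cell surface carry.

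The brighter of the 2 St6gal1 probe sets did not show a loss in the arrays labelled null, with 2337 and 3642 intensity units in the null pools of sets 1 and 2 against 2330 and 2796 in the wild-type pools (log2 ratio 0.19 ± 0.16, SE, n = 2, limma adjusted p = 0.563). A probe set outside the deleted part checks nothing, so directions rest on the labels. The epithelial label of the tissue held, as the keratins of simple epithelium Krt8 and Krt18 read at least 101213 and 114320 on every array. Values at or below 565, the highest reading of 13 Y-linked probe sets in these female mice, were treated as not told from unspecific signal. RNA quality differed between the sets, with a 3'/5' ratio of Gapdh of 0.869 and 0.873 in set 1 and of 1.57 and 2.13 in set 2, the last in the null pool. Ratios were taken within a set, after the design of the series, which leaves the difference between the 2 pools of set 2 in place.

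Of the junction genes with a tested probe set, 3 of 34 rose and 1 fell in the null pools. Cdh11, the mesenchymal cadherin, the gap junction gene Gja1 and the claudin gene Cldn4 rose, and Cdh2, which encodes N-cadherin, fell. The rising genes were 8.82% of the 34, where 5.19% of all 11511 genes tested rose, and the falling gene was 2.94%, where 3.58% of all genes fell. The other 30 genes did not pass, among them the main epithelial components Cdh1, Ctnna1, Ctnnb1, Tjp1, Dsp and Epcam. The value of a gene is that of its brightest probe set, the ratio is null over wild type on a log2 scale after adding 44 to each intensity, and a gene passed where limma's adjusted p over all 22519 probe sets tested was under 0.05. The 4 calls need all 4 arrays and both the set term and the intensity trend of the fit. With no set term in limma 0 probe sets passed, with 1261 at an unadjusted p under 0.05, and with no intensity trend 0 passed as well, with 3512 at that level.

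**Figure D1:**
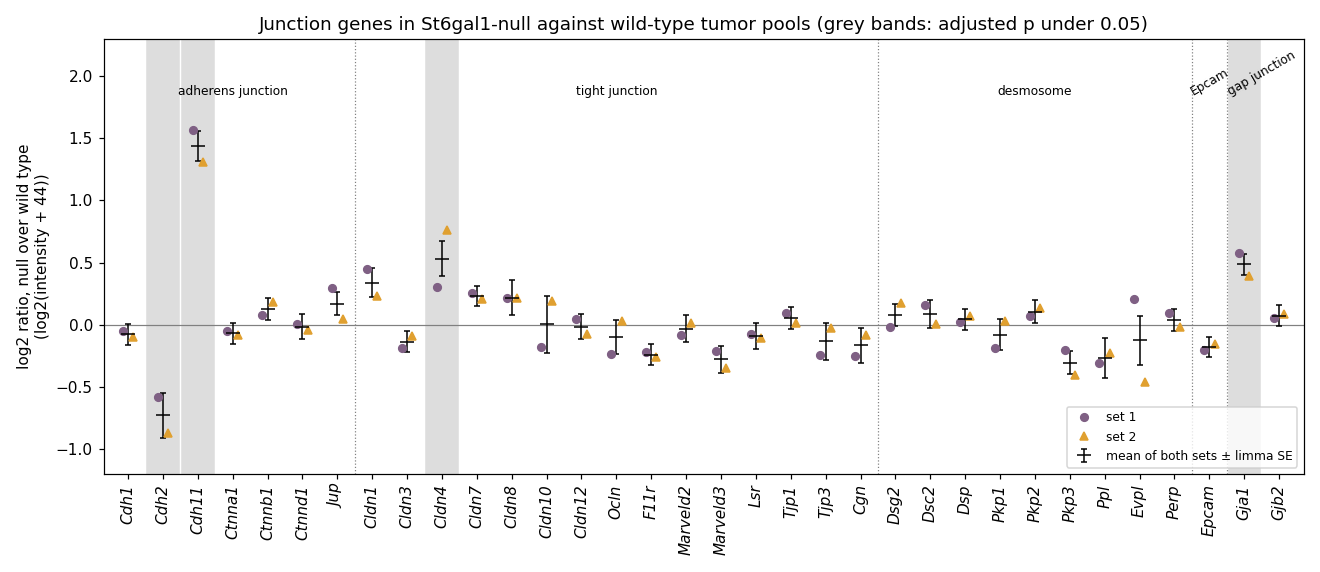
Log2 ratio of null over wild type for the 34 tested junction genes, with circles for set 1, triangles for set 2, and bars for the mean of both sets ± the SE of limma. The grey bands mark Cdh2, Cdh11, Cldn4 and Gja1, which passed an adjusted p of 0.05, and 26 of the 34 means lie within 0.25 of 0.

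Most junction genes lay close to no difference. The median log2 ratio over the 34 genes was -0.02, beside -0.01 over all genes tested, and 26 of 34 (76.5%) lay within 0.25 of 0, beside 67.8% of all genes. For 24 of 34 the 95% interval of limma lay within 0.5 of 0. The members were also brighter, with a median intensity of 7378 against 3725. The ratio had the same sign in both sets for 25 of 34 genes (73.5%), beside 65.2% of all genes. Null and wild-type arrays did not overlap for 13 of 34 genes (38.2%), a share near the 34.6% found over all genes. The class medians were -0.02 for 7 adherens junction genes, -0.03 for 15 tight junction genes and 0.04 for 9 desmosome genes, and both connexins gave 0.28 on average. In each set alone these medians were 0.01 and -0.04, -0.09 and 0.02, 0.02 and 0.01, and 0.32 and 0.24.

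The promoter windows of the genes that moved are shown where the RefSeq table (build GRCm38.p6) holds them, from 250 bases before to 50 bases after the start site. Gja1 and Cldn4 rose, and Cldn3 is set beside Cldn4 because no other protein-coding gene starts between them and it did not pass. Capitals mark matches, on either strand, to the E-box CAGGTG bound by Snail and Zeb factors, the AP-1 motif TGANTCA, the GC box GGGCGG and the grainyhead motif AACNGGTT. The windows are chr10:56377050-56377349 (plus strand) for Gja1, chr5:134946885-134947184 (minus strand) for Cldn4 and chr5:134985964-134986263 (plus strand) for Cldn3.
Gja1: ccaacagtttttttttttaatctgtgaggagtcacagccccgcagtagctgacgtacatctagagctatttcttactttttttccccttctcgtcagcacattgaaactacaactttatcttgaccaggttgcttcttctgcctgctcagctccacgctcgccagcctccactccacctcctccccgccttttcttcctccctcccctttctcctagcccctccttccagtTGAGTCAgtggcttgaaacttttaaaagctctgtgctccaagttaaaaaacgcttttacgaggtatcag
Cldn4: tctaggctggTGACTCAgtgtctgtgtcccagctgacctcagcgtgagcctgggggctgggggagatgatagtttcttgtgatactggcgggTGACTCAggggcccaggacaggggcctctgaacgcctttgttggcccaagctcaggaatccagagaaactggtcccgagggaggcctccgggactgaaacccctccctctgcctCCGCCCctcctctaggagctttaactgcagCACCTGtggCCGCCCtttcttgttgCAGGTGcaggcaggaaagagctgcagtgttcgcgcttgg
Cldn3: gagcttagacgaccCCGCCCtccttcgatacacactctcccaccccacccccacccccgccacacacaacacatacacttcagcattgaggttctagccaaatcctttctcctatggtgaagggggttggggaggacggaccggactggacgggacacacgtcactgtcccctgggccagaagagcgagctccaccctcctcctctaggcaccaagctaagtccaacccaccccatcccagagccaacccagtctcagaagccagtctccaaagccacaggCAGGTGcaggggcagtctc

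The window of Gja1 held 1 AP-1 match, 19 bases before the start site, and no match to the other motifs. Cldn4 held 2 AP-1, 2 E-box and 2 GC box matches, and Cldn3 held 1 E-box and 1 GC box match but no AP-1 match. Of the members, 20 genes had such a window. The E-box stood in 11 of the 20 (55%), beside 22.6% of all 27025 genes with a window, AP-1 in 4 (20%, Cldn4, F11r, Gja1 and Lsr) beside 8.97%, the GC box in 17 (85%) beside 38.2%, and the grainyhead motif in 1 (Cgn, 5%) beside 2.35%. Of the 4 genes with an AP-1 match Cldn4 and Gja1 rose, while F11r and Lsr had ratios of -0.24 and -0.09 that did not pass. A gene counted where any of its windows matched, with 29 windows for the 20 members and 32851 for the 27025 genes. The shares over all genes were not matched for base composition or expression. The motifs are matches of letters, and binding was not measured.

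Among the member cadherins, the 1 type II gene, Cdh11, went up and 1 of 2 tested type I genes, Cdh2, went down. This contrast rests on 1 gene of each type. Cdh5, a type II cadherin outside the members, was at -0.10 ± 0.27 and did not pass. Cdh11 read 8128 and 7264 in the null pools of sets 1 and 2 and 2716 and 2905 in the wild-type pools. Both null pools were far above both wild-type pools, and Cdh11 rose 2.71-fold (log2 1.44 ± 0.12, SE, n = 2, limma adjusted p = 2.65e-06), the largest change in size among the 34 genes. Its second probe set read 813 and 587 in the null pools against 291 and 348, too low to be tested, with ratios of 1.35 and 0.68 in sets 1 and 2.

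Cdh2, which encodes N-cadherin, read 1828 and 1377 in the null pools and 2764 and 2560 in the wild-type pools. The genotypes did not overlap, and Cdh2 fell by 0.73 on the log2 scale (SE 0.18, n = 2, limma adjusted p = 0.0234). Its second probe set read 502 and 590 in the null pools and 1241 and 906 in the wild-type pools. Its ratio was -0.91 ± 0.31 and did not pass (adjusted p from limma 0.0956). The null reading of set 1 lay within the unspecific level, so the fall of Cdh2 rests on the brighter probe set. With only probe sets above the 75th percentile tested, Cdh2 lay below the filter and had no test.

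Cdh1, which encodes E-cadherin, read 55190 and 47442 in the null pools and 57177 and 50907 in the wild-type pools. The genotypes overlapped, because the values of set 2 were lower than those of set 1 in both. Its log2 ratio was -0.08, with a 95% interval of limma from -0.26 to 0.10 that is not adjusted for the number of genes. Cdh3, which encodes P-cadherin of myoepithelial cells, could not be compared: its brighter probe set read 124 and 806 in the null pools and 1036 and 140 in the wild-type pools, opposite in the 2 sets, and lay below the filter.

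The cadherins were also set against each other within each array, which removes what an array shares. The difference Cdh11 minus Cdh1 grew by 1.62 in set 1 and by 1.41 in set 2 from wild type to null, on the log2 scale. The difference Cdh2 minus Cdh1 was lower by 0.53 and 0.77, as changes of -0.53 and -0.77. The difference Cdh11 minus Cdh2 changed by 2.15 and 2.18. These differences restate the calls of Cdh11 and Cdh2 against a nearly level Cdh1 and are given as a description. An exact two-sided permutation test of 2 against 2 arrays cannot go below p = 0.333, so it could not test them.

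**Figure D2:**
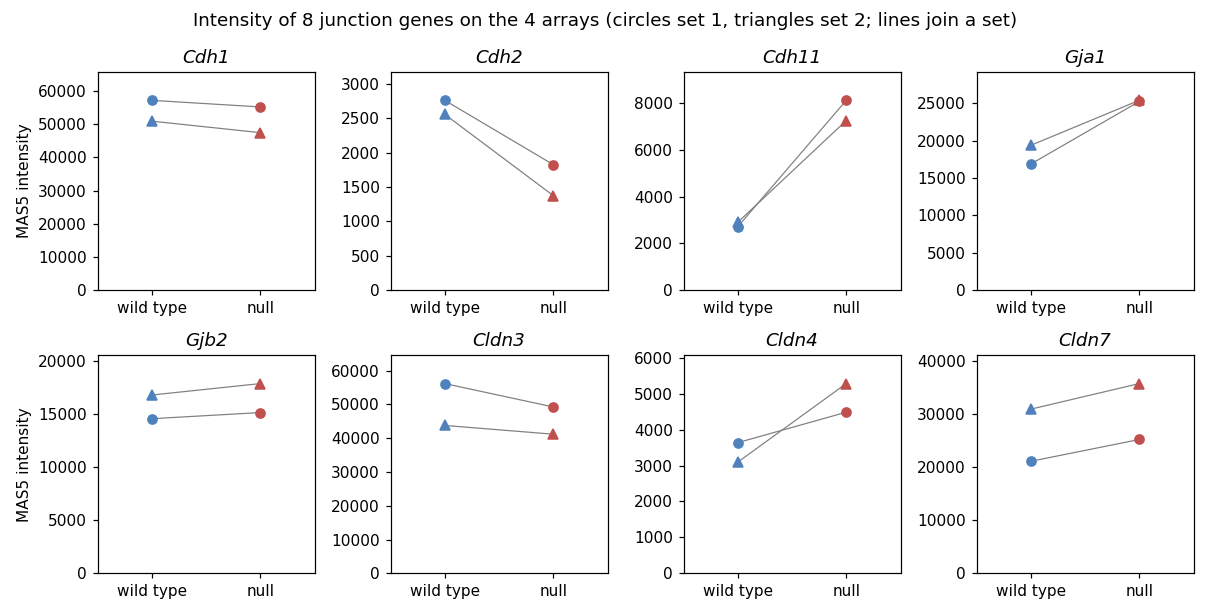
MAS5 intensity of 8 junction genes on the 4 arrays, wild type in blue and null in red, with circles for set 1 and triangles for set 2 and a line joining the pools of a set. Cdh11 rises from 2716 and 2905 to 8128 and 7264, Cdh2 goes down in both sets, and Cdh1 stays between 47442 and 57177.

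The fibroblast markers rose with Cdh11. Of 13 listed fibroblast genes 13 rose (limma), with a median log2 ratio of 1.11, and the summed intensity of the list was 426242 and 483892 in the null pools against 204734 and 221998 in the wild-type pools. All 13 read above the unspecific level on every array, with Lum, Col1a1 and Dpt, all of the collagen matrix, at log2 ratios of 2.11, 1.84 and 1.60. In bulk tissue more cells of a type and more RNA per cell cannot be told apart, and the part of the fibroblast markers in the rise of Cdh11 was not tested. Of the basal and myoepithelial markers 6 of 13 fell and 0 rose, with a median of -0.43. Ratios were negative in both sets for 10 of the 13 and positive in both for 2, Krt17 and Itgb4. Of the contractile genes Mylk and Myh11 fell by 0.88 and 0.78, while Acta2, Cnn1 and Tagln, at -0.18, -0.13 and -0.04, did not pass. Oxtr, which encodes the oxytocin receptor, fell by 0.85. The summed intensity, to which Acta2 and Tagln give the largest part, was 153306 and 164145 in the null against 191310 and 197018 in the wild-type pools. The part of the basal markers in the fall of Cdh2 was not tested.

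The catenins, which link cadherin tails to actin, did not pass. Ctnna1, encoding alpha-catenin, read 57155 and 55918 in the null and 59342 and 59415 in the wild-type pools. The null arrays were below the wild-type arrays, but by so little (-0.07, interval -0.25 to 0.11) that the gene did not pass. Ctnnb1, encoding beta-catenin, had a ratio of 0.13 ± 0.09 (its dimmest probe set -0.18), Ctnnd1, encoding p120-catenin, -0.02 ± 0.10, and Jup, encoding plakoglobin of adherens junctions and desmosomes, 0.17 ± 0.09. The lowest adjusted p of limma among these 4 genes was 0.341, for Jup.

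The claudins, the sealing or pore-forming proteins of tight junctions, held 1 gene that passed. Cldn4 read 4483 and 5279 in the null pools and 3636 and 3094 in the wild-type pools. The genotypes did not overlap, and the step was larger in set 2 (1.70-fold) than in set 1 (1.23-fold). Over both sets Cldn4 rose 1.44-fold (log2 0.53 ± 0.14, SE, n = 2, limma adjusted p = 0.0301). Its log2 ratios were 0.30 in set 1 and 0.76 in set 2, and the SE is that of limma, not the spread of these ratios. Cldn4 has 1 probe set, so no second reading exists.

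Cldn1, a claudin of barrier epithelia, read 6521 and 5381 in the null pools and 4778 and 4580 in the wild-type pools without overlap. Its ratio of 0.34 ± 0.11 did not pass (limma adjusted p = 0.0962), and its second tested probe set was at 0.15 with opposite signs in the 2 sets. Cldn7 read 25185 and 35700 in the null pools against 21082 and 30891, a ratio of 0.23 ± 0.08 that also did not pass (limma adjusted p = 0.111). Cldn8 had a ratio of 0.22 ± 0.14, Cldn10 of 0.00 ± 0.23 and Cldn12 of -0.02 ± 0.10. The median over the 7 claudins was 0.22.

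Cldn3, a neighbour of Cldn4 with 0 protein-coding genes starting between them, read 49253 and 41193 in the null pools and 56166 and 43780 in the wild-type pools. Its ratio was -0.14 ± 0.08, with an interval from -0.32 to 0.04, and its 4 probe sets ranged from -0.22 to -0.13, all negative in both sets and none past the threshold. The ratio of Cldn4 was positive in both sets and that of Cldn3 negative in both. The difference between the genes was not tested beyond this.

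The other membrane proteins of the tight junction all had ratios under 0 on their brightest probe sets, and none passed. F11r, encoding the adhesion molecule JAM-A, read 13018 and 12847 in the null pools and 15189 and 15387 in the wild-type pools. The arrays of each genotype lay close together and apart from the other genotype, but the ratio of -0.24 ± 0.09 did not pass (limma adjusted p = 0.116). Marveld3 had a ratio of -0.28 ± 0.11 on its brightest probe set and of -0.003 on its second. Ocln, encoding occludin, Marveld2, encoding tricellulin of tricellular contacts, and Lsr, an organiser of the same contacts, had ratios of -0.10, -0.03 and -0.09, with the second probe set of Ocln at 0.16.

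The plaque proteins of the tight junction, which tie membrane proteins to actin, had ratios of 0.05 for Tjp1 (ZO-1), -0.14 for Tjp3 (ZO-3) and -0.17 for Cgn (cingulin). None passed, and the lowest adjusted p of limma among them was 0.566. The interval of Tjp1 ran from -0.13 to 0.24.

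In the desmosome 0 of 9 tested genes passed by their brightest probe set. Dsg2 and Dsc2, the desmosomal cadherins found in simple epithelia, had ratios of 0.08 ± 0.09 and 0.08 ± 0.11, and the lowest ratio among their dimmer tested probe sets was -0.35 and -0.15. Dsc3, a cadherin of stratified and basal cells, read at most 577 on its brighter probe set, near the unspecific level, and was not tested. Of the plaque genes, Pkp3, encoding plakophilin 3, read 9175 and 10674 in the null pools and 10589 and 14147 in the wild-type pools, with a ratio of -0.31 ± 0.09 just outside the threshold (limma adjusted p = 0.0641). Its second probe set gave -0.38 ± 0.17, and with only probe sets above the 75th percentile tested Pkp3 passed (adjusted p of limma 0.0404, with a range of 0.0404 to 1 over all alternatives). Ppl (periplakin) and Evpl (envoplakin), crosslinkers of the plaque, had ratios of -0.27 and -0.13, Pkp1 and Pkp2 of -0.08 and 0.10 (up to 0.55 on a dimmer probe set of Pkp2, not past the threshold), and Perp, a p53 target of the desmosome, of 0.04.

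Dsp, encoding desmoplakin, the link to keratin filaments, gave a split answer. Its brightest probe set read 30774 and 31814 in the null and 30389 and 30394 in the wild-type pools, a ratio of 0.04 ± 0.08 (interval -0.13 to 0.22). Its second probe set read 19689 and 22330 against 14907 and 16350 and rose 1.34-fold (log2 0.42 ± 0.08, limma adjusted p = 0.00527). The third, much dimmer, had a ratio of 0.36 ± 0.36 with opposite signs in the 2 sets and did not pass. The transcripts that each probe set reads are not given in the files, so the gene cannot be said to have risen.

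Epcam, encoding an epithelial adhesion molecule that partners with claudins, read 45381 and 21835 in the null and 52347 and 24274 in the wild-type pools. The step between the sets was larger than that between genotypes. Its ratio was -0.18 ± 0.08 and its second probe set was at 0.12, neither past the threshold (limma adjusted p = 0.233 and 0.616).

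Among the connexins, Gja1 rose and Gjb2 did not pass. Gja1, encoding connexin 43 of fibroblasts, myoepithelium and many other cells, read 25235 and 25386 in the null pools and 16862 and 19368 in the wild-type pools. The genotypes did not overlap, and Gja1 rose 1.40-fold (log2 0.48 ± 0.09, limma adjusted p = 0.00242). Of its 6 probe sets, the brightest 4 passed, at 1.34-fold to 1.53-fold, and the dimmest 2 had ratios of 0.25 ± 0.22 and 0.19 ± 0.26. The part of the fibroblast markers in the rise of Gja1 was not tested. Gjb2, encoding connexin 26 of luminal cells, read 15112 and 17834 in the null and 14534 and 16759 in the wild-type pools, with a ratio of 0.07 and an interval from -0.11 to 0.25.

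**Figure D3:**
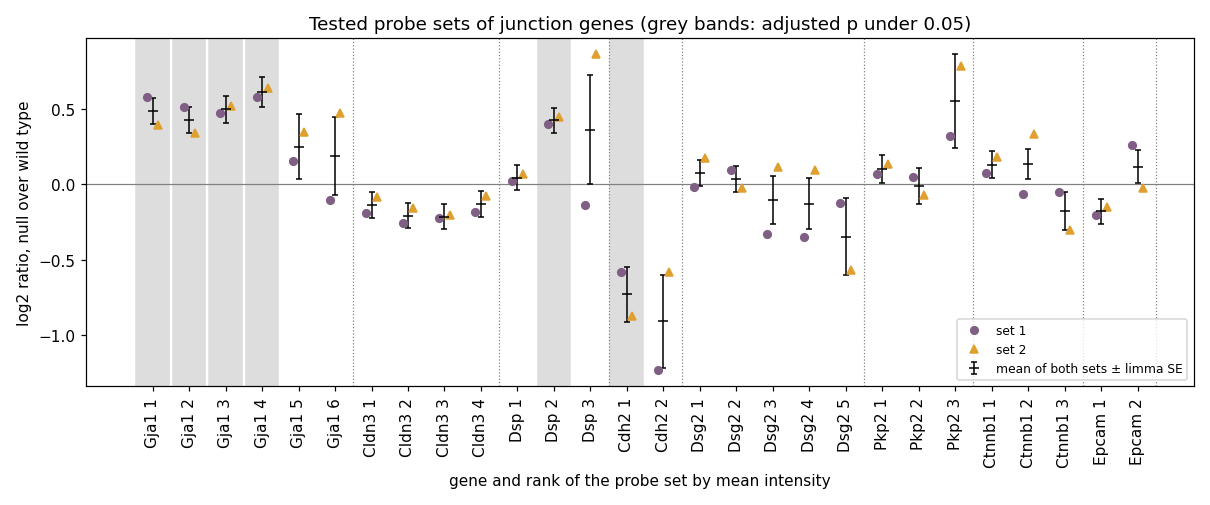
Log2 ratio of null over wild type for the tested probe sets of 8 junction genes, ranked within a gene by mean intensity, with circles for set 1, triangles for set 2 and bars for the mean ± the SE of limma. The brightest 4 probe sets of Gja1 lie near 0.5, the 4 of Cldn3 lie between -0.22 and -0.13, and those of Dsp differ (0.04, 0.42 and 0.36, the last with opposite signs in the 2 sets).

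Counted by probe set, 8 of 63 tested member probe sets (12.7%) were called, 7 higher and 1 lower, beside 7.36% of all 22519. Of these 8, 4 belong to Gja1, and probe sets of 1 gene read the same RNA, so this share is not independent evidence. The 4 called genes are Cdh11, Cldn4, Gja1 and Cdh2, and the remaining called probe set is the second of Dsp.

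More junction genes passed for set than for genotype. Of the 34 genes 12 passed for set 2 against set 1 (35.3%), 8 higher and 4 lower, beside 23.1% of all genes tested. The balance of directions depends on taking the brightest probe set. By probe set, 11 passed as higher and 15 as lower in set 2. Ctnnd1 read 9959 and 9903 in the null and wild-type pools of set 1 and 4858 and 4995 in those of set 2. Epcam fell by 1.08 on the log2 scale and Ocln by 0.71 (SE 0.08 and 0.14), while Jup, Pkp1 and Cgn rose by 0.69, 0.61 and 0.55. None of the 4 genes called for genotype was among the 12. Probe sets of 1 gene disagreed on the set: the 3 of Ctnnb1 gave 0.30, -0.50 and -1.17, all past the threshold, and the 4 of Cldn3 ran from -0.31 to -1.15. The 3'/5' ratio of Gapdh differed between the sets in the same arrays, and its part was not tested.

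**Figure D4:**
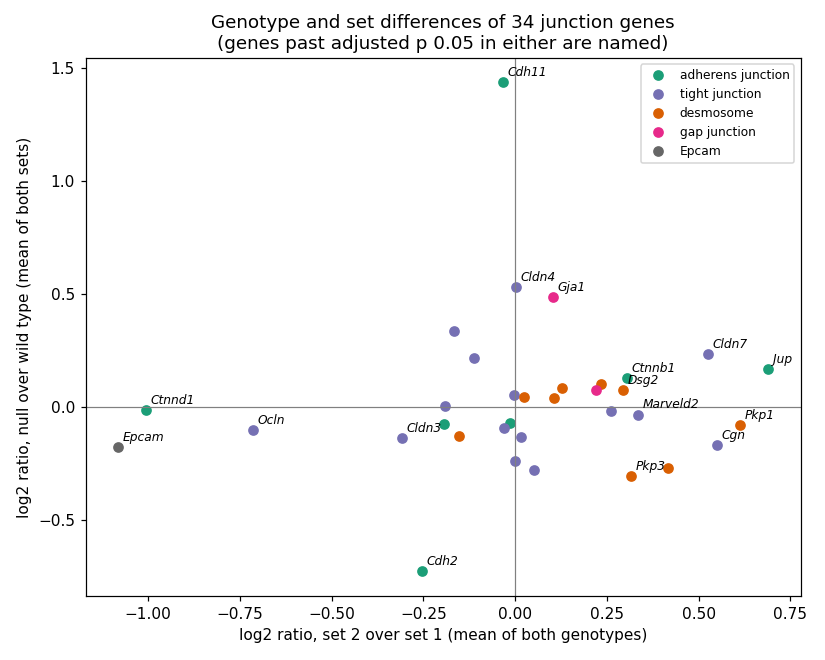
Log2 ratio of null over wild type (mean of both sets) against that of set 2 over set 1 (mean of both genotypes) for 34 junction genes, coloured by class. Cdh11, Cldn4, Gja1 and Cdh2 stand apart on the genotype axis and between -0.25 and 0.10 on the set axis, whereas Epcam and Ctnnd1 lie near -1 on the set axis and near 0 on the genotype axis.

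Junction genes outside the 37 were read from lists of 88 genes, of which 48 were tested, 3 rose and 3 fell, with a median of -0.11. Over all 11511 genes tested 5.19% rose and 3.58% fell, so these counts are not read as a trait of junction genes. The same shares stand beside the counts of the smaller lists that follow. Among nectins and adherens junction linkers, 2 of 10 fell: Lima1, encoding an actin-binding partner of alpha-catenin, by 0.56 and Nectin4, encoding a nectin, by 0.77 (limma adjusted p = 8.54e-04 and 0.00867). The second probe set of Nectin4 was at 0.06, so this gene rests on 1 of its 2 probe sets, while 3 of 4 tested probe sets of Lima1 passed. Among 22 genes of tight junction scaffolds and polarity, Esam, an endothelial adhesion molecule, rose 1.74-fold, Ybx3, encoding the ZO-1-associated factor, rose 1.24-fold, and Amotl1, encoding an angiomotin, fell by 0.32. Of 3 tested further claudins Cldn2, a pore-forming claudin, rose 1.31-fold on its brighter probe set, with the other at 0.02.

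No gene passed among 6 other cadherins and catenins (Ctnnal1 at -0.35 ± 0.18 and Cdh13 at 0.21 ± 0.20), 4 desmosome and plaque genes (Cdsn at 0.12 ± 0.28, Plec at -0.05 ± 0.08) and 3 connexins and pannexins (Gjb6 at -0.71 ± 0.35, Gja4 at 0.53 ± 0.35). Cdsn, Gjb6 and Gja4 had readings within the unspecific level, down to 509, 361 and 458, so their ratios are not read as changes. The ratio of Gja4 was 0.00 in set 1 and 1.06 in set 2. In the joint list of endothelial and pericyte markers 3 of 10 rose (Vwf, Eng and Rgs5) and 0 fell, with a median of 0.49. The summed intensity of the list was 31775 and 32472 in the null against 20155 and 21564 in the wild-type pools. Of these sums Rgs5, a pericyte gene, gave 11706 and 13621 in the null and 6588 and 7081 in the wild-type pools. The part of these markers in the rise of Esam was not tested. Cdh5, the cadherin that defines endothelium, had a ratio of -0.10 ± 0.27.

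Transcription factors known to act on epithelial junction genes went in both directions: of 15 tested, 3 passed as higher and 2 as lower, and of the 3 Twist1 had wild-type readings within the unspecific level. Grhl2, a grainyhead factor that activates Cdh1 and Cldn4, read 11235 and 10655 in the null and 13930 and 15857 in the wild-type pools and fell by 0.44 (SE 0.09, limma adjusted p = 0.00888), and Grhl1 fell by 0.34. The second tested probe set of Grhl2, at most 946, was at 0.07. The level of Cldn4 was higher and that of Grhl2 lower in both null pools.

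Klf4, an epithelial zinc finger factor, rose 2.02-fold (second probe set 0.78 ± 0.24, not past the threshold), and Tcf4, an E-box factor of mesenchymal cells, rose 1.35-fold. Twist1, a mesenchymal E-box factor, read 987 and 1511 in the null pools and 545 and 408 in the wild-type pools. Its probe set was bright enough to be tested only through the null pools, and the gene did not pass with no filter, so no fold is given. Snai1, Snai2, Zeb1 and Zeb2, repressors of Cdh1, did not pass, at 0.22 ± 0.32, -0.19 ± 0.10, 0.37 ± 0.16 and 0.41 ± 0.17. For Zeb2 the sets went opposite ways, 14417 against 7568 in set 1 and 3832 against 4114 in set 2.

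**Figure D5:**
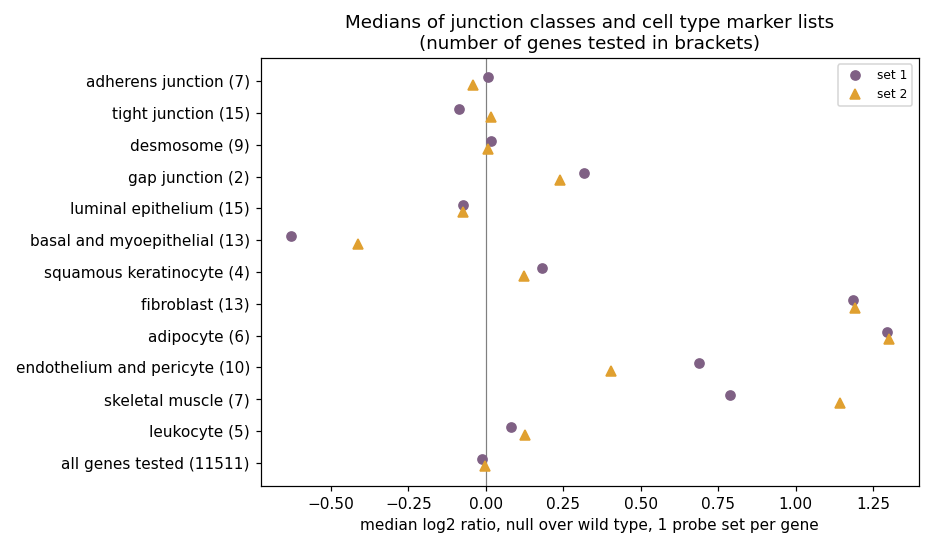
Median log2 ratio of null over wild type in set 1 (circles) and set 2 (triangles) for junction classes, cell type marker lists and all 11511 genes tested, with 1 probe set per gene. The medians of adherens junctions, tight junctions and desmosomes lie within 0.1 of 0 in both sets, whereas the fibroblast and adipocyte lists lie above 1.1 and the basal list below -0.4.

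The fibroblast, adipocyte and basal medians lay further from 0 than those of the adherens junction, tight junction and desmosome classes, whereas the luminal median lay within 0.1 of 0 in both sets. In the luminal list 4 of 15 genes rose and 1 fell, with a median of -0.08, and 8 of the 15 had negative ratios in both sets. Its summed intensity, to which Krt8 and Krt18 give the largest part, was 506984 and 552140 in the null against 475623 and 473299 in the wild-type pools. Prom1, a membrane marker of luminal cells, and Pgr, the progesterone receptor, rose 2.28-fold and 1.64-fold, while Cited1, a luminal co-regulator, fell by 1.13. Of 6 tested adipocyte markers 4 rose (median 1.27), of 7 muscle markers 3 passed as higher (median 0.92), and of 5 leukocyte markers and 4 squamous keratinocyte markers 0 and 1 rose. Of the 3 muscle genes only Tnnc2 read above the unspecific level on every array, while Ckm and Tnni2 had wild-type readings down to 220 and 236 and did not pass with no filter on dim probe sets. Tnnt3 and Myh4, tested but not past the threshold, had wild-type readings down to 294 and 414. The muscle median leans on these dim genes and is not read as a rise. The squamous marker that rose was Sprr1a, 2.1-fold (log2 1.07 ± 0.20, limma adjusted p = 0.00329), above the unspecific level on every array. The other tested squamous markers did not pass, and Krt1, Krt16, Ivl, Flg and Sprr1b read at or below the unspecific level on all 4 arrays.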

How the data were processed

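RNA was measured on 4 one-colour Affymetrix arrays, 1 per pool of 3 tumors. The deposited values are linear intensity values that the authors made with MAS5 (version not given in the sources used here), per the submitters' processing notes. The mean of each array without the top and bottom 2% was 2500.01, so no further scaling was applied. The table holds 45101 probe sets, 64 of them controls that were left out, and 0 columns stayed unmapped.

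Intensities became log2(value + 44), where 44 is their 10th percentile, which understates changes of dim genes. The 22519 probe sets at or above the median of the mean log2 value were tested across all of them with limma 3.58.1 (R 4.3.3): lmFit on genotype plus set, eBayes with an intensity trend, and Benjamini-Hochberg adjusted p under 0.05. The set is a block from the series' design text, and deviations from group means correlated at 0.612 within sets. The fit has 1 residual degree of freedom and 13.5 prior ones, so the SE, interval and p of a gene rest mostly on other probe sets of like intensity. It was tested on simulated data. Their spread was drawn from this same fit, so the simulation cannot check the assumptions of the fit for these pools. The number of arrays limits the precision.

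A gene took its brightest probe set. The annotation gave 1 symbol to 34945 probe sets, several to 932 and none to 9160, and only the first kind was named. Of 202 genes in the other lists, 17 had none. All 37 members are named, with the called genes of each other junction list or else up to 2, and up to 3 per marker list. The members and lists were chosen with earlier results of these data known. Promoter windows came from the RefSeq table (GRCm38.p6).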

Additional observations from a re-analysis of the deposited data

How the results depend on the processing

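Quantile and cyclic loess normalization, pseudocounts of 1 and of 4 times the main one, and no filter each called Cdh11, Cldn4 and Gja1 higher and Cdh2 lower among the members, as the reported fit did. Testing only probe sets above the 75th percentile called the same 3 higher and Pkp3 lower. With no replicate block (no set term) and with no intensity trend the members called were 0 higher and 0 lower, and all probe sets called were 0. The desmosome median, 0.04 as reported, was 0.023 with quantile and 0.028 with cyclic loess normalization and -0.081 with the mean over a gene's probe sets, and the adherens median was 0.056 with the stricter filter.

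Leaving out 1 array with the set term leaves the ratio of the other set and no test. Over leaving out each array with and without the set term, the medians ranged from -0.087 to 0.008 for adherens junctions, -0.085 to 0.067 for tight junctions, -0.043 to 0.121 for desmosomes and 0.178 to 0.38 for connexins. Without the set term and 1 array, the calls were 5 to 26 among all probe sets and 0 among members. In those fits the genotypes hold the sets in different shares. With the set term the ratio is that of 1 set, and 9 of 34 genes had opposite signs in the 2 sets. These 9 are Ctnnd1, Cldn10, Cldn12, Ocln, Marveld2, Dsg2, Pkp1, Evpl and Perp. Over both kinds of leaving out, the uncalled ratios of the genes named next changed sign. Their ranges were -0.185 to 0.033 for Cdh1, -0.049 to 0.306 for Ctnnb1, -0.53 to 0.499 for Ctnnd1, -0.238 to 0.575 for Jup, -0.318 to 0.041 for Cldn3, -0.043 to 0.507 for Cldn7, -0.184 to 0.192 for Cldn10, -0.18 to 0.143 for Cldn12, -0.526 to 0.321 for Ocln, -0.227 to 0.158 for Marveld2, -0.484 to 0.148 for Cgn, -0.12 to 0.27 for Dsg2, -0.018 to 0.184 for Dsc2, -0.44 to 0.279 for Pkp1, -0.03 to 0.235 for Pkp2, -0.459 to 0.204 for Evpl, -0.043 to 0.121 for Perp, -0.733 to 0.374 for Epcam, -0.046 to 0.192 for Gjb2 and -0.024 to 0.331 for the macrophage gene Adgre1. Among other named genes, Grhl1 did not pass under either normalization or without the filter, nor did Twist1, Ybx3 and Amotl1 without the filter. Dim genes such as Cdh3 and Dsc3 are limited by signal over background.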
